A study of Caenorhabditis elegans with 9 samples.

Results

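The genes described here encode subunits of ligand-gated ion channels and of two-pore potassium channels of the nematode Caenorhabditis elegans. They were selected by a rule on gene names, which was set with earlier results of these data known. The rule took every probe set annotated with a single gene called acr, lgc, glr, nmr or twk with a number, or called unc-29, unc-38, unc-63 or unc-49. A probe set is the group of probes on an expression array that together give 1 signal for a transcript. The rule found 122 genes on 139 probe sets, out of 17118 genes on 20766 probe sets with a single gene. The 122 genes comprise 23 acetylcholine receptor genes (acr, unc-29, unc-38, unc-63), 46 genes of other Cys-loop channels (lgc, unc-49), 11 ionotropic glutamate receptor genes (glr, nmr) and 42 two-pore potassium channel genes (twk). The annotation of 7 further probe sets lists a member beside another gene, and these were left out.

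Whole animals labelled as L1 larvae, the first larval stage, were measured on 9 arrays in 3 groups of 3. N2 is the wild-type laboratory strain and served as the control without a transgene. The group called aex-3 SUMO here is the transgenic strain JS62, which carries aex-3::his-SUMO-1, and the group called myo-4 SUMO is the transgenic strain JS63, which carries myo-4::his-SUMO-1. SUMO is a small protein that is attached to other proteins and alters their activity. Here a His-tagged form was expressed ectopically. The aex-3 promoter is active in neurons, and myo-4 is an older name for unc-54, which encodes the main myosin of body wall muscle. All 3 groups fed on OP50 bacteria and were synchronised by bleaching. Each transgene is represented by a single strain, and whether it was integrated is not given in the sources used here. The 3 arrays of a group come from 3 biological replicate populations, so the spread behind each p-value is that between populations, and the number of arrays limits the precision.

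Cys-loop channels are made of subunits arranged in a ring around a pore and open when a transmitter binds. In the worm they carry excitation by acetylcholine and inhibition by gamma-aminobutyric acid (GABA) at the neuromuscular junction, and other members answer to glutamate, serotonin, dopamine, tyramine or betaine. Ionotropic glutamate receptors act at synapses between neurons, chiefly on the interneurons that command locomotion. Two-pore potassium channels carry potassium leak currents that hold the resting potential of muscle and nerve, and the worm has an unusually large family of them, most of them in few cells.

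The deposited values are linear signal per probe set. A probe set counted as above background, and was tested, where its signal exceeded the 40th percentile of its own array on at least 3 of the 9 arrays. This kept 14204 of 22548 probe sets (63%). Median signal per array was higher in N2 (27.6 to 28.6) than in the transgenic groups (23.2 to 25.7), so this offset and the comparisons cannot be told apart. The smo-1 transcript, which encodes SUMO, lay at 512 to 715 on the N2 arrays and at 887 to 1078 on the transgenic arrays. Whether this probe set detects the transgenes is not given in the sources used here, so the value is no full check of the labels. N2 replicate 1 differed from the other N2 arrays at some probe sets, with aex-3 at 1.92 there against 31.4 and 28.0, and counts are therefore also given without it. Although the animals were labelled as L1 larvae, whose gonad holds neither sperm nor oocytes, 22 of 23 sperm genes, 15 of 15 oocyte and germline genes and 5 of 5 yolk genes on the array passed the filter.

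Most of the channel genes gave little signal in whole animals. Of the 139 probe sets, 47 (33.8%), which stand for 43 genes, lay above background and were tested, and 92 were not. Of those 92, 81 exceeded the 40th percentile of their array on 0 of the 9 arrays, and 11 did so on 1 or 2. The share tested was 39.1% for acetylcholine receptors (9 of 23), 26.4% for other Cys-loop channels (14 of 53), 20% for glutamate receptors (3 of 15) and 43.8% for two-pore potassium channels (21 of 48). Each of these lies below the 63% of all probe sets. The number of member probe sets above the 40th percentile was 37 to 41 on N2 arrays, 41 to 42 on those of aex-3 SUMO and 37 to 42 on those of myo-4 SUMO, so this number overlapped between the groups.

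Stricter rules left fewer members. On all 9 arrays, 22 probe sets exceeded the 40th percentile, and 13 exceeded the 60th percentile on at least 3 arrays. The array also carries 32 probe sets for bacterial and yeast transcripts that are not hybridisation controls. The labels do not say whether such RNA was added, and the highest of these probe sets gave 20.3 to 49.6. On at least 3 arrays, 18 members of 15 genes exceeded that highest control, and 13 members of 10 genes did so on all 9. The 10 genes were lgc-21, lgc-22, lgc-32, lgc-34, lgc-44, unc-49, twk-1, twk-5, twk-18 and twk-46, which include no acetylcholine or glutamate receptor.

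**Figure D1:**
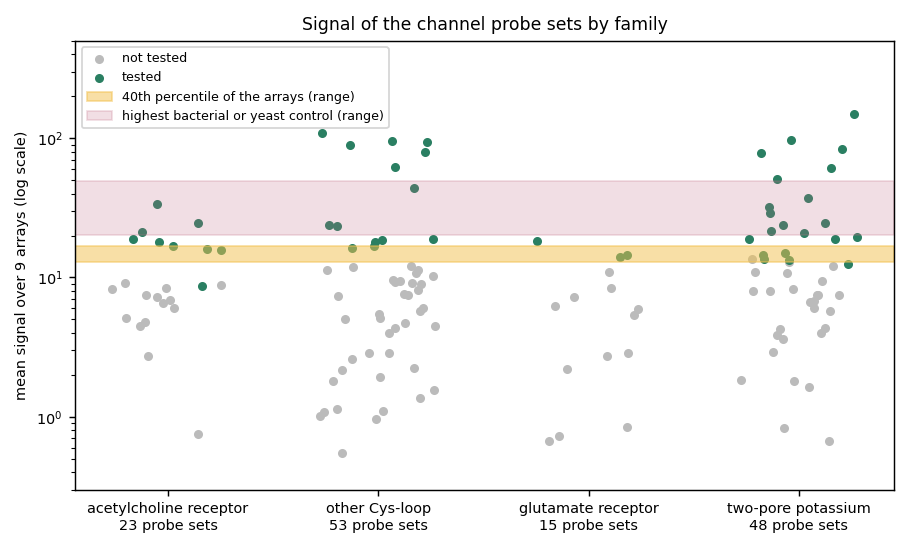
Mean signal over the 9 arrays (log scale) of each of the 139 channel probe sets, by family; green points were tested and grey points were not. The yellow band spans the 40th percentiles of the arrays (12.9 to 16.9) and the pink band the highest bacterial or yeast control (20.3 to 49.6). Most grey points lie below the yellow band, and a tested point can lie there where a few arrays were high. Signals of different probe sets are not transcript levels on 1 scale.

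Several of the best-studied receptor genes were among those not tested. The muscle receptor subunit unc-63 gave 5.24, 7.81 and 6.21 in N2, 11.2, 10.1 and 7.43 in aex-3 SUMO and 11.2, 4.75 and 11.2 in myo-4 SUMO. The motor neuron receptor subunit acr-2 gave 10.2, 10.5 and 11.3 in N2, 7.43, 5.18 and 7.39 in aex-3 SUMO and 4.31, 10.4 and 8.32 in myo-4 SUMO. All 18 of these values lie under the 40th percentile of their arrays, and no order is read from them. Both probe sets of glr-1, the AMPA-type receptor subunit of command interneurons, were below background on all 9 arrays (172066_x_at at 7.84 to 16.7, 187868_s_at at 0.867 to 9.5). The NMDA-type subunit nmr-1 lay at 0.351 to 7.22. Also untested were acr-3 and acr-12 (motor neuron acetylcholine receptor subunits), acr-23 (a betaine receptor), lgc-35 (a GABA-gated cation channel), lgc-50 (gated by serotonin), lgc-53 (gated by dopamine), lgc-55 (gated by tyramine) and twk-40 (a leak channel of neurons). With signals below background on at least 7 of 9 arrays, no difference between the groups is read from these genes, including those that pass when no filter is applied.

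In aex-3 SUMO against N2, 15 of the 47 tested probe sets were lower and 0 were higher at an adjusted p of 0.05. The test was limma, with Benjamini-Hochberg adjustment over all 14204 probe sets, on log2(signal + 1.623). The 15 are 31.9% of the members tested, while 24.0% of all probe sets were lower and 24.1% were higher. At an unadjusted p under 0.05 the members numbered 19 lower and 0 higher, where 28% of all probe sets were lower and 27.4% higher. The lower members were 7 other Cys-loop probe sets (lgc-21, lgc-22, lgc-27, lgc-34, lgc-44, lgc-49, unc-49), 7 two-pore potassium probe sets (twk-5, twk-18, twk-23, twk-25, twk-26, twk-46, twk-49) and 1 acetylcholine receptor (acr-21). The median log2 change was -0.27 over the 47 members and -0.04 over all probe sets. Of the members, 38 had a negative and 9 a positive log2 change. All aex-3 SUMO arrays lay below all N2 arrays at 20 members and above them at 0, where 29% and 27.4% of all probe sets did so. Centring each array on its median moved the median of all probe sets from -0.04 to 0.18 and that of the members from -0.27 to -0.05, and 6 members were then lower and 0 higher. Under that centring 71.5% of all calls were higher, against 50.1% as deposited.

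In myo-4 SUMO against N2, 11 of the 47 members were lower and 0 were higher. The 11 are 23.4% of the members tested, while 20.3% of all probe sets were lower and 24.0% were higher. At an unadjusted p under 0.05 the members numbered 13 lower and 0 higher, where 24.2% of all probe sets were lower and 28.1% higher. The lower members were 7 two-pore potassium probe sets (twk-5, twk-8, twk-18, twk-25, twk-26, twk-46, twk-49) and 4 other Cys-loop probe sets (lgc-21, lgc-22, lgc-44, lgc-49). The median log2 change was -0.23 over the members and 0.00 over all probe sets, with 36 negative and 11 positive. All myo-4 SUMO arrays lay below all N2 arrays at 14 members and above them at 0, where 25.3% and 27% of all probe sets did so. Centred on array medians, the medians were -0.09 for the members and 0.15 for all probe sets, and 5 members were lower and 0 higher. The share of higher calls among all calls was then 70.0%, against 54.2% as deposited. Both comparisons use the same N2 arrays, so that 10 members were lower in both is not 2 independent observations.

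Whether lower calls were more common among the members than over all probe sets depended on the scaling in both lines. In aex-3 SUMO the share was 31.9% of members against 24.0% of all probe sets as deposited. It was 21.3% against 19.4% after quantile normalization, and 12.8% against 14.4% with arrays centred. In myo-4 SUMO these shares were 23.4% against 20.3%, 19.1% against 18.1% and 10.6% against 13.9%. The difference in shares was not tested, and higher calls among the members were absent under all of these scalings. The members were also dim as a group, and the share of higher calls rose with signal over the whole array. When the tested probe sets were divided into 3 equal classes by mean signal, 34 members fell in the class from 7.94 to 42.4, 12 in the class from 42.4 to 138 and 1 in the class above. In the lowest class, 24.3% of all probe sets were lower and 7.52% were higher in aex-3 SUMO, against 7 (20.6%) and 0 of the 34 members. In the middle class the shares were 26.0% and 27.5% of all probe sets, against 7 (58.3%) and 0 of the 12 members. The same classes for myo-4 SUMO gave 17% lower and 8.11% higher against 5 (14.7%) and 0 of 34 members, and then 22.8% and 27.6% against 5 (41.7%) and 0 of 12 members. In the middle class the median log2 change of the members was -0.43 in aex-3 SUMO and -0.39 in myo-4 SUMO, where that of all probe sets was 0.03 and 0.07. These class values are for the deposited scaling. With arrays centred, only lgc-21, lgc-22 and twk-18 of the middle class stayed lower in aex-3 SUMO, and only lgc-21 and lgc-22 in myo-4 SUMO. The middle class also holds both tested probe sets of unc-49 and of twk-18, so its members are not all separate genes.

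**Figure D2:**
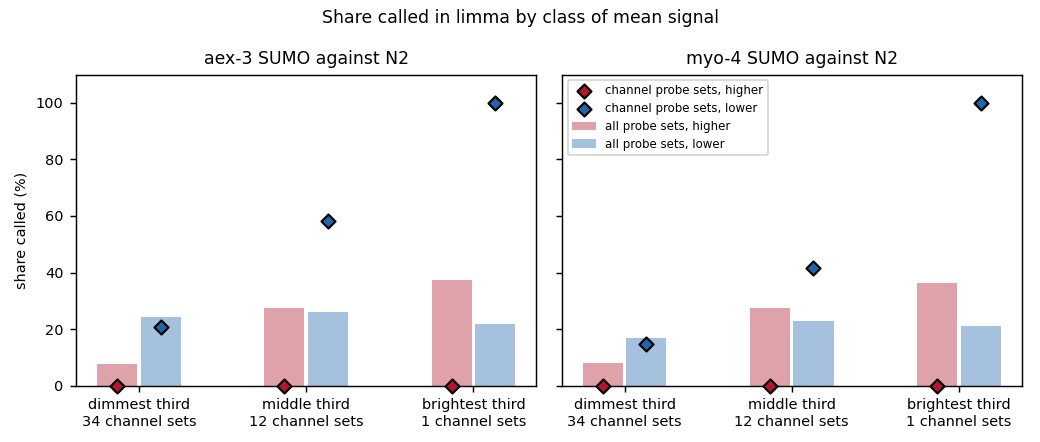
Share of probe sets called higher (red) or lower (blue) against N2, in percent, in 3 equal classes of mean signal; bars are all tested probe sets and diamonds the channel probe sets, whose number stands under each class. The diamonds for lower calls lie near the bar in the lowest class (20.6% against 24.3% in aex-3 SUMO) and above it in the middle class (58.3% against 26.0%), and those for higher calls lie at 0. The highest class holds 1 channel probe set. All shares are for the deposited scaling, and fewer channel probe sets were lower with arrays centred.

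Markers of the tissues that use these channels moved with the groups. Of 18 panneuronal marker genes tested, 11 were lower in aex-3 SUMO and 9 in myo-4 SUMO, with 0 higher, and their median log2 changes were -0.41 and -0.31. Summed over that list, N2 arrays gave 2976 to 3270, aex-3 SUMO arrays 1854 to 2093 and myo-4 SUMO arrays 2058 to 2165, without overlap between N2 and either transgenic group. The 2 remaining markers of that list, unc-31 and rgef-1, were below background. Of 15 body wall muscle markers, 9 were lower and 2 higher in aex-3 SUMO, and 8 lower and 2 higher in myo-4 SUMO. Summed signal was 20710 to 23520 on N2 arrays, 15360 to 16290 on those of aex-3 SUMO and 14570 to 17750 on those of myo-4 SUMO. Intestinal markers were lower for 8 of 11 genes in each line and higher for 0 and 1. Hypodermal and cuticle markers were lower for 5 and 4 of 10 and higher for 0 and 1. Pharyngeal muscle markers showed 1 of 4 genes higher and 1 lower in each line. Of all probe sets, 24.0% and 20.3% were lower. With arrays centred on their medians, panneuronal markers were lower for 7 genes in each line and higher for 1 and 0. Body wall muscle markers were then lower for 6 in each line and higher for 2 and 3. Intestinal markers were lower for 8 and higher for 1 in each line. Hypodermal and cuticle markers were lower for 5 and 4 and higher for 2 and 1.

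Markers of oocytes and the germline moved the other way. Of 15 such genes, 12 were higher in aex-3 SUMO and 13 in myo-4 SUMO, with 0 lower, and their summed signal was 8420 to 13770 on N2 arrays, 16630 to 18140 on those of aex-3 SUMO and 16610 to 18920 on those of myo-4 SUMO. Yolk genes were higher for 4 and 3 of 5. Of all probe sets, 24.1% and 24.0% were higher. With arrays centred, 15 oocyte and germline genes were higher in each line, and 5 and 4 yolk genes. Sperm genes showed 1 higher and 3 lower of 22 in aex-3 SUMO and 0 higher and 2 lower in myo-4 SUMO, with summed signals that overlapped between all groups (65500 to 94090 in N2, 61330 to 68010 and 55110 to 69570). The sperm median in aex-3 SUMO was -0.16 as deposited and 0.06 when centred. The part of any of these tissues in the changes of the channel genes was not tested. In whole animals, fewer cells of a type and less of an RNA in each cell cannot be told apart. Whether the populations differed in stage or germline content was not tested, and such a difference cannot be told apart from the transgenes.

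**Figure D3:**
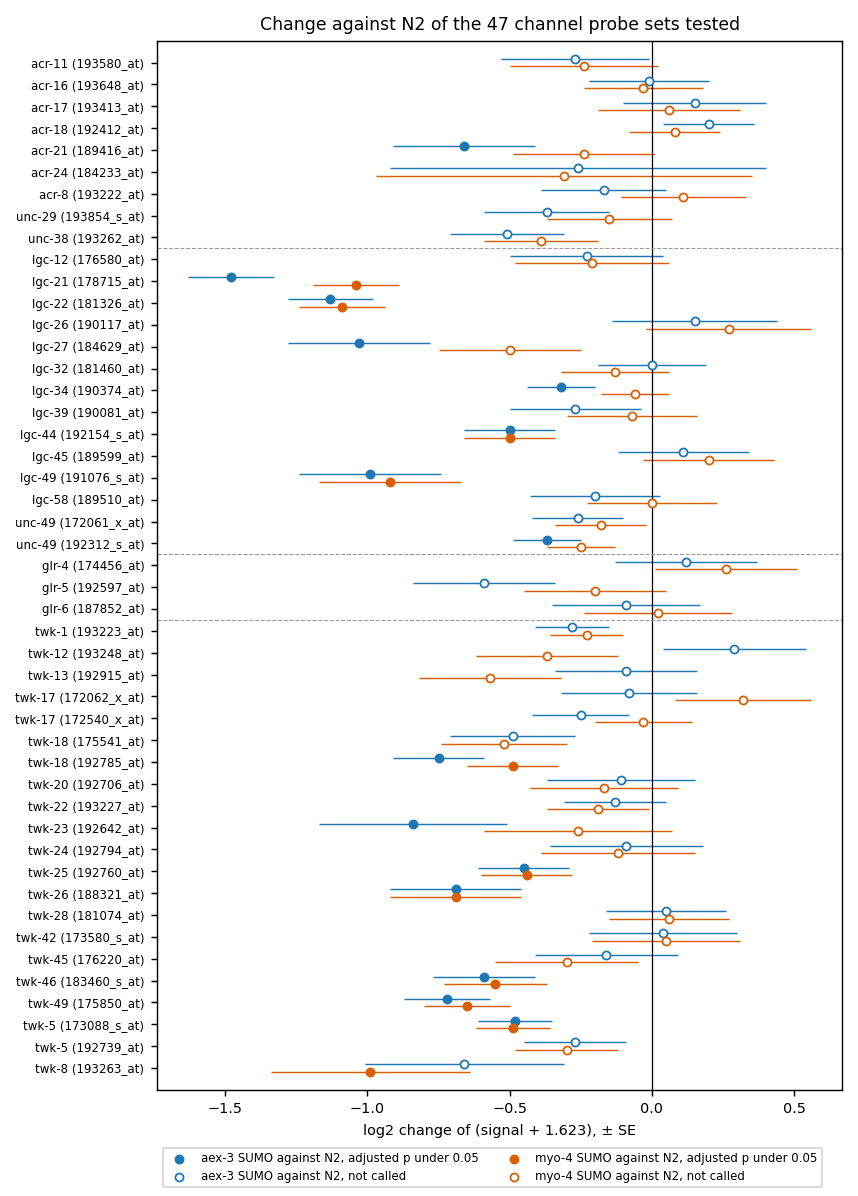
Log2 change against N2 (± SE) of each of the 47 channel probe sets tested, with aex-3 SUMO in blue and myo-4 SUMO in orange; filled points passed an adjusted p of 0.05 in limma and dashed lines part the families. Every filled point lies left of 0, and the lowest are those of lgc-21 (-1.48 and -1.04) and lgc-22 (-1.13 and -1.09).

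Among the acetylcholine receptors, 1 of 9 tested probe sets was lower in aex-3 SUMO and 0 in myo-4 SUMO (limma, with 2 and 0 lower at an unadjusted p under 0.05). Of all probe sets, 24.0% and 20.3% were lower (28.0% and 24.2% at the unadjusted threshold). The muscle receptor that levamisole opens is built from unc-29, unc-38 and unc-63, together with lev-1 and lev-8. The unc-29 signal was 18.7, 33.1 and 32.1 in N2, 21.2, 23 and 18 in aex-3 SUMO and 25, 21.6 and 26.8 in myo-4 SUMO. N2 replicate 1 lay among the transgenic arrays, and the groups overlapped. The log2 change was -0.37 ± 0.22 (adjusted p = 0.181, 95% interval -0.85 to 0.11) in aex-3 SUMO and -0.15 ± 0.22 (adjusted p = 0.61) in myo-4 SUMO. Without N2 replicate 1 the change in aex-3 SUMO was -0.62 (adjusted p = 0.0142), the only 1 of 17 alternatives that gave a call.

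The unc-38 signal was 27.4, 22.5 and 28.6 in N2, 19.1, 18.9 and 15.7 in aex-3 SUMO and 16.1, 18.9 and 24.3 in myo-4 SUMO. All aex-3 SUMO arrays lay below the N2 arrays, while the myo-4 SUMO arrays overlapped them. The changes of -0.51 ± 0.20 (adjusted p = 0.0542) and -0.39 ± 0.20 (adjusted p = 0.136) did not pass the threshold. The call for aex-3 SUMO was made under 3 of 17 alternative settings, with adjusted p from 0.0276 to 0.299 over all of them.

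The nicotine-sensitive muscle receptor subunit acr-16 gave 16.6, 22.1 and 15.8 in N2, 18.3, 15.4 and 20 in aex-3 SUMO and 16.6, 19.9 and 16.4 in myo-4 SUMO. The groups overlapped throughout, with log2 changes of -0.01 ± 0.21 and -0.03 ± 0.21. The acr-18 gene, whose product belongs to the DEG-3 group of acetylcholine receptor subunits, gave 37.5, 32.0 and 25.9 in N2, 35.9, 37.4 and 35.7 in aex-3 SUMO and 32.5, 34.9 and 32.6 in myo-4 SUMO. Both transgenic groups overlapped N2, while the aex-3 SUMO arrays lay above those of myo-4 SUMO. The changes against N2 were 0.20 ± 0.16 (95% interval -0.15 to 0.54) and 0.08 ± 0.16 (95% interval -0.27 to 0.42).

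The acr-21 signal was 16.8, 22.4 and 22.6 in N2, 13, 8.75 and 16.4 in aex-3 SUMO and 16.2, 20.3 and 15 in myo-4 SUMO. The aex-3 SUMO arrays lay below those of N2, by little at their highest, and only 1 of them exceeded its 40th percentile. The change was -0.66 ± 0.25 (adjusted p = 0.0447) in aex-3 SUMO, a call that was lost under 12 of 17 alternatives, where the adjusted p reached 0.209. Without aex-3 SUMO replicate 2, the lowest array, the change was -0.44 (adjusted p = 0.173). In myo-4 SUMO the arrays overlapped those of N2, with a change of -0.24 ± 0.25 (adjusted p = 0.447). The other 4 tested acetylcholine receptor genes (acr-8, acr-11, acr-17, acr-24) did not pass in either line, with log2 changes from -0.27 to 0.15 against N2 in aex-3 SUMO and from -0.31 to 0.11 in the other line.

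Other Cys-loop channels held the largest differences among the 47 members. No ligand is stated here for lgc-21, lgc-22, lgc-27, lgc-34 or lgc-44. The lgc-21 signal was 134, 177 and 158 in N2, 48.8, 64.3 and 51.5 in aex-3 SUMO and 64.2, 82.4 and 77.9 in myo-4 SUMO. Every transgenic array lay far below every N2 array. The gene fell by 1.48 ± 0.15 on the log2 scale in aex-3 SUMO (adjusted p = 3.12e-05), 2.8-fold, and by 1.04 ± 0.15 in myo-4 SUMO (adjusted p = 0.000238), 2.06-fold. Over all alternatives the changes ranged from -1.60 to -1.26 and from -1.15 to -0.90, and every call held.

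For lgc-22 the signal was 164.6, 131 and 142.3 in N2, 65.3, 74.8 and 57.7 in aex-3 SUMO and 58.6, 81.1 and 64.1 in myo-4 SUMO. The transgenic groups again lay wholly below N2, at similar values in both lines. The gene fell by 1.13 ± 0.15 in aex-3 SUMO (adjusted p = 0.000134) and by 1.09 ± 0.15 in myo-4 SUMO (adjusted p = 0.000182). The ranges over the alternatives were -1.22 to -0.91 and -1.22 to -0.94, and every call held.

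The lgc-49 gene is grouped by sequence with the acetylcholine-gated chloride channels, which inhibit the cells that carry them. Its signal was 27.3, 32.6 and 21.5 in N2, 15.1, 13.5 and 9.99 in aex-3 SUMO and 17.4, 12.8 and 10.7 in myo-4 SUMO. Both transgenic groups lay below N2, with 1 of 3 arrays of each above its 40th percentile. The gene fell by 0.99 ± 0.25 (adjusted p = 0.00586) and by 0.92 ± 0.25 (adjusted p = 0.00947), and both calls held under every alternative in which it was tested. Its relatives lgc-46, lgc-47 and lgc-48 were below background.

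The lgc-27 signal was 26.0, 19.6 and 24.5 in N2, 8.24, 9.40 and 14.9 in aex-3 SUMO and 13.6, 17.9 and 16.7 in myo-4 SUMO. Both transgenic groups lay below N2, and 1 of the 3 aex-3 SUMO arrays exceeded its 40th percentile. The gene fell by 1.03 ± 0.25 in aex-3 SUMO (adjusted p = 0.0045), a call that held under every alternative in which it was tested. The change of -0.50 ± 0.25 in myo-4 SUMO did not pass (adjusted p = 0.117). For lgc-44 the signal was 60.5, 52.4 and 52.1 in N2, 44.1, 41.9 and 30.2 in aex-3 SUMO and 39.7, 36.6 and 38.4 in myo-4 SUMO. The groups did not overlap N2, and the gene fell by 0.50 ± 0.16 in each line (adjusted p = 0.02 and 0.0215). Centring on array medians gave -0.28 (adjusted p = 0.146) and -0.36 (adjusted p = 0.0756), and calls were lost under 3 and 4 of 18 alternatives. Leaving out aex-3 SUMO replicate 3 gave -0.34 (adjusted p = 0.0991), and leaving out myo-4 SUMO replicate 2 gave -0.47 (adjusted p = 0.0669).

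The lgc-34 signal was 97.9, 88.8 and 105.2 in N2, 82.0, 77.5 and 72.6 in aex-3 SUMO and 86.9, 92.7 and 100.2 in myo-4 SUMO. Only the aex-3 SUMO arrays lay below N2, with a change of -0.32 ± 0.12 (adjusted p = 0.0415), against -0.06 ± 0.12 (adjusted p = 0.709) in myo-4 SUMO. The call was lost under 10 of 18 alternatives, and centring gave -0.10 (adjusted p = 0.507). By contrast, lgc-32 at 52, 58.9 and 83.2 in N2, 67.2, 64.8 and 58.7 in aex-3 SUMO and 70.3, 46.6 and 58.8 in myo-4 SUMO had overlapping groups, with changes of 0.00 ± 0.19 and -0.13 ± 0.19.

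The unc-49 gene encodes subunits of the GABA-gated chloride channel through which motor neurons relax body wall muscle, and alternative splicing gives several subunits. Of its 4 probe sets, 192312_s_at gave 127, 123 and 126 in N2, 93.4, 114 and 84.5 in aex-3 SUMO and 102.8, 103.7 and 108 in myo-4 SUMO. Both transgenic groups lay below N2, whose own arrays were close together. The change was -0.37 ± 0.12 in aex-3 SUMO, a fall that passed (adjusted p = 0.027), and -0.25 ± 0.12 in myo-4 SUMO, which did not (adjusted p = 0.118). The aex-3 SUMO call was lost under 4 of 18 alternatives, among them centring (-0.15, adjusted p = 0.334) and leaving out aex-3 SUMO replicate 3 (-0.28, adjusted p = 0.126).

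A second unc-49 probe set, 172061_x_at, gave 98.4, 93 and 73.7 in N2, 77.5, 62.3 and 79.8 in aex-3 SUMO and 79.7, 66.0 and 86.6 in myo-4 SUMO. These groups overlapped, and changes of -0.26 ± 0.16 (adjusted p = 0.176) and -0.18 ± 0.16 (adjusted p = 0.35) did not pass. The other unc-49 probe sets were below background on all 9 arrays, 175835_at at 0.838 to 5.52 and 175836_s_at at 1.35 to 6.6. Probe sets whose name ends in _s_at or _x_at may detect more than 1 transcript, and which unc-49 transcripts each detects was not analysed here.

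No glutamate receptor probe set passed in either comparison (limma), with 1 of 3 tested lower at an unadjusted p under 0.05 in aex-3 SUMO and 0 in myo-4 SUMO. Of all probe sets, 24.0% and 20.3% were lower (28.0% and 24.2% at the unadjusted threshold). With 3 probe sets tested, nothing about the family is read from these counts. The 1 lower probe set was glr-5, a subunit of the non-NMDA class, at 21.6, 23 and 20.5 in N2, 16, 15.3 and 10.8 in aex-3 SUMO and 17.7, 13.8 and 26.2 in myo-4 SUMO. The aex-3 SUMO arrays lay below N2 and the myo-4 SUMO arrays on both sides of it. The changes were -0.59 ± 0.25 (adjusted p = 0.064) and -0.20 ± 0.25 (adjusted p = 0.521). Also of the non-NMDA class, glr-6 gave 13, 13.9 and 16.7 in N2, 13.5, 11.1 and 16.3 in aex-3 SUMO and 13, 20.7 and 11.5 in myo-4 SUMO. These groups overlapped, as did those of glr-4 on 174456_at (10.4 to 16.6 on N2 arrays, 12.9 to 14.4 on those of aex-3 SUMO and 12.1 to 18.1 on those of myo-4 SUMO). The other 2 probe sets of glr-4, 189846_at and 190059_at, were below background.

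Among two-pore potassium channels, 7 of 21 tested probe sets were lower in each line, 6 of them in both. That is 33.3% in each line, where 24.0% and 20.3% of all probe sets were lower. With arrays centred on their medians, only twk-18 and twk-49 stayed lower in aex-3 SUMO, and only twk-5 and twk-49 in myo-4 SUMO. Of all probe sets, 14.4% and 13.9% were then lower. The twk-18 channel is a leak channel of body wall muscle whose gain-of-function mutants are paralysed. On 192785_at its signal was 85.4, 109 and 135 in N2, 68.2, 65.2 and 58.4 in aex-3 SUMO and 74.4, 76.2 and 79.7 in myo-4 SUMO. Both transgenic groups lay below N2, aex-3 SUMO lower than myo-4 SUMO without overlap. The signal fell by 0.75 ± 0.16 (adjusted p = 0.00196) and by 0.49 ± 0.16 (adjusted p = 0.0227). The first call held under every alternative, and the second was lost under 4 of 18, among them centring (-0.34, adjusted p = 0.0779) and leaving out N2 replicate 3 (-0.33, adjusted p = 0.0838).

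On 175541_at, the other twk-18 probe set, the signal was 78.8, 115 and 182 in N2, 81.0, 91.4 and 79.9 in aex-3 SUMO and 82.5, 84.1 and 79.4 in myo-4 SUMO. The N2 arrays were spread widely, with replicate 1 at or below the transgenic arrays. The changes of -0.49 ± 0.22 (adjusted p = 0.0862) and -0.52 ± 0.22 (adjusted p = 0.0732) did not pass. Without N2 replicate 1 they were -0.77 (adjusted p = 0.00211) and -0.81 (adjusted p = 0.00176). This was the only 1 of 18 alternatives in which this probe set was called in either line.

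The twk-49 signal was 43.2, 50 and 58.7 in N2, 30.3, 28.9 and 30.6 in aex-3 SUMO and 30.5, 31.1 and 32.9 in myo-4 SUMO. The transgenic arrays were close together and all below N2. The gene fell by 0.72 ± 0.15 (adjusted p = 0.00191) and by 0.65 ± 0.15 (adjusted p = 0.00398), and both calls held under every alternative in which it was tested. For twk-5 on 173088_s_at the signal was 157, 180 and 217 in N2, 146, 125 and 122 in aex-3 SUMO and 127, 137 and 125 in myo-4 SUMO. No transgenic array reached an N2 array. The changes were -0.48 ± 0.13 (adjusted p = 0.0107) and -0.49 ± 0.13 (adjusted p = 0.0108), and the aex-3 SUMO call was lost only when arrays were centred (-0.26, adjusted p = 0.118), out of 18 alternatives.

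The other probe set of twk-5, 192739_at, gave 53.4, 67.5 and 91.7 in N2, 65.8, 52.9 and 53.3 in aex-3 SUMO and 57.2, 55.6 and 55.1 in myo-4 SUMO. Here N2 replicate 1 lay at the level of the transgenic arrays. The changes of -0.27 ± 0.18 (adjusted p = 0.219) and -0.30 ± 0.18 (adjusted p = 0.184) did not pass, and without N2 replicate 1 they were -0.45 (adjusted p = 0.0278) and -0.48 (adjusted p = 0.0227). No other alternative gave a call for this probe set.

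The twk-46 signal was 62, 60.6 and 72.1 in N2, 44.0, 47.1 and 36.6 in aex-3 SUMO and 47.1, 32.4 and 54 in myo-4 SUMO. Both groups lay below N2, with falls of 0.59 ± 0.18 (adjusted p = 0.0174) and 0.55 ± 0.18 (adjusted p = 0.0261). For twk-26 the signal was 46.6, 32.3 and 38.2 in N2, 27.8, 23.1 and 19.6 in aex-3 SUMO and 27.2, 16.4 and 28.4 in myo-4 SUMO. Neither group overlapped N2, and the gene fell by 0.69 ± 0.23 in each line (adjusted p = 0.0231 and 0.0259). The twk-46 calls were lost under 3 and 4 of 18 alternatives, and each twk-26 call under 6 of 17. Without myo-4 SUMO replicate 2 the changes in that line were -0.35 for twk-46 (adjusted p = 0.124) and -0.45 for twk-26 (adjusted p = 0.117). Without aex-3 SUMO replicate 3 those in the other line were -0.49 (adjusted p = 0.0767) and -0.58 (adjusted p = 0.0915).

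The twk-25 signal was 34.5, 43.1 and 39.5 in N2, 26.7, 30.4 and 27 in aex-3 SUMO and 27.5, 32.5 and 25.2 in myo-4 SUMO. All transgenic arrays lay below all N2 arrays, with changes of -0.45 ± 0.16 (adjusted p = 0.0335) and -0.44 ± 0.16 (adjusted p = 0.0403). These calls were lost under 7 and 11 of 17 alternatives. The twk-8 signal was 19, 18.6 and 15.3 in N2, 7.52, 14.4 and 10.6 in aex-3 SUMO and 5.03, 14.7 and 6.67 in myo-4 SUMO. Both groups lay below N2, with 1 of 3 arrays of each above its 40th percentile. The change passed in myo-4 SUMO (-0.99 ± 0.35, adjusted p = 0.0341, lost under 7 of 17 alternatives) and not in aex-3 SUMO (-0.66 ± 0.35, adjusted p = 0.131).

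The twk-23 signal was 15.1, 20.9 and 18.7 in N2, 12.8, 5.52 and 11.4 in aex-3 SUMO and 9.28, 18.7 and 18.7 in myo-4 SUMO. All 3 aex-3 SUMO arrays were below background, and so was N2 replicate 1, so no size of the change is read. The fit gave an adjusted p of 0.0498, a call that was lost under 12 of 17 alternatives, among them leaving out aex-3 SUMO replicate 2 (adjusted p = 0.197). In myo-4 SUMO the arrays overlapped N2 (-0.26 ± 0.33, adjusted p = 0.542). Of the channels that did not pass, twk-1 gave 79.2, 89.1 and 97.3 in N2, 72.8, 75.4 and 69.2 in aex-3 SUMO and 81.6, 66.2 and 77.3 in myo-4 SUMO. Its aex-3 SUMO arrays lay below N2, and its changes were -0.28 ± 0.13 (adjusted p = 0.0899) and -0.23 ± 0.13 (adjusted p = 0.155).

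**Figure D4:**
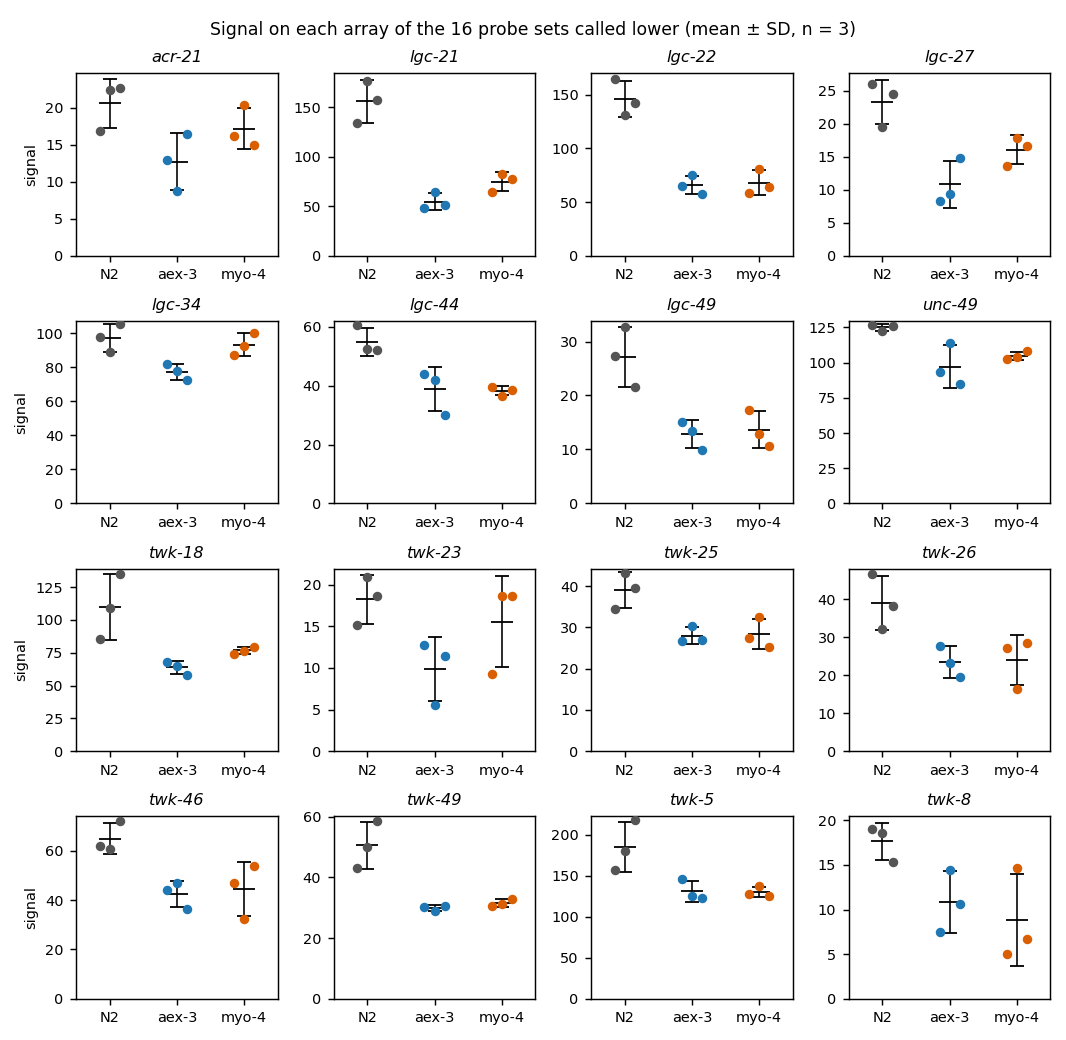
Signal (linear, from 0) on each array of the 16 channel probe sets called lower in at least 1 line, with the mean and SD of the 3 arrays per group; points within a group are replicates 1, 2 and 3 from left to right. N2 lies above both transgenic groups for lgc-21 (134 to 177 against at most 82.4) and for lgc-22, while acr-21, lgc-34 and twk-23 overlap N2 in myo-4 SUMO.

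The 16 probe sets lower in at least 1 line belong to 16 genes, 10 of them lower in both lines, 5 in aex-3 SUMO and 1, twk-8, in myo-4 SUMO. That a gene passed in 1 line and not the other does not show that the lines differ, and the direct comparison of myo-4 SUMO with aex-3 SUMO called 0 of the 47 members (limma). At an unadjusted p under 0.05, 3 members were higher and 1 lower in myo-4 SUMO. Of all probe sets, 5.79% were higher and 2.99% lower at that unadjusted threshold, and 0.183% and 0.0563% after adjustment. The 3 were lgc-21 (0.44 ± 0.15, unadjusted p = 0.0132, adjusted p = 0.393), lgc-27 (0.53 ± 0.25, unadjusted p = 0.0496, adjusted p = 0.569) and lgc-34 (0.26 ± 0.12, unadjusted p = 0.0472, adjusted p = 0.562). The 1 was twk-12 (-0.67 ± 0.25, unadjusted p = 0.0203, adjusted p = 0.437), at 34.2, 20 and 26.9 in aex-3 SUMO and 14.6, 13 and 21.6 in myo-4 SUMO. The arrays of the lines did not overlap at 4 members, 2 in each direction, where 12.6% of all probe sets were wholly higher and 8.24% wholly lower in myo-4 SUMO. For lgc-22 the 95% interval of the difference between the lines was -0.29 to 0.37, and for twk-49 it was -0.25 to 0.39.

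Members with several probe sets show how far a result rests on the probe set. Of the 122 genes, 13 had more than 1 probe set. In 4 of these (twk-5, twk-17, twk-18, unc-49) more than 1 was tested, and in 5 some were tested and others were not. For twk-5, twk-18 and unc-49, 1 tested probe set passed in aex-3 SUMO and the other did not. In myo-4 SUMO this held for twk-5 and twk-18, while neither tested unc-49 probe set passed. Both tested probe sets of each of these genes had negative changes in both lines. Neither tested probe set of twk-17 passed (172062_x_at at -0.08 ± 0.24 and 0.32 ± 0.24, 172540_x_at at -0.25 ± 0.17 and -0.03 ± 0.17). The third twk-17 probe set, 175825_s_at, lay at 5.09 to 9.55 and was not tested. The genes lgc-45 and twk-45 each had 1 probe set tested and 1 below background (186896_at at 0.676 to 7.82 and 176277_at at 1.71 to 6.13). The tested lgc-45 probe set, 189599_at, carries that symbol in the platform annotation, but the ID annotated for it was not found in the gene table used here.

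**Figure D5:**
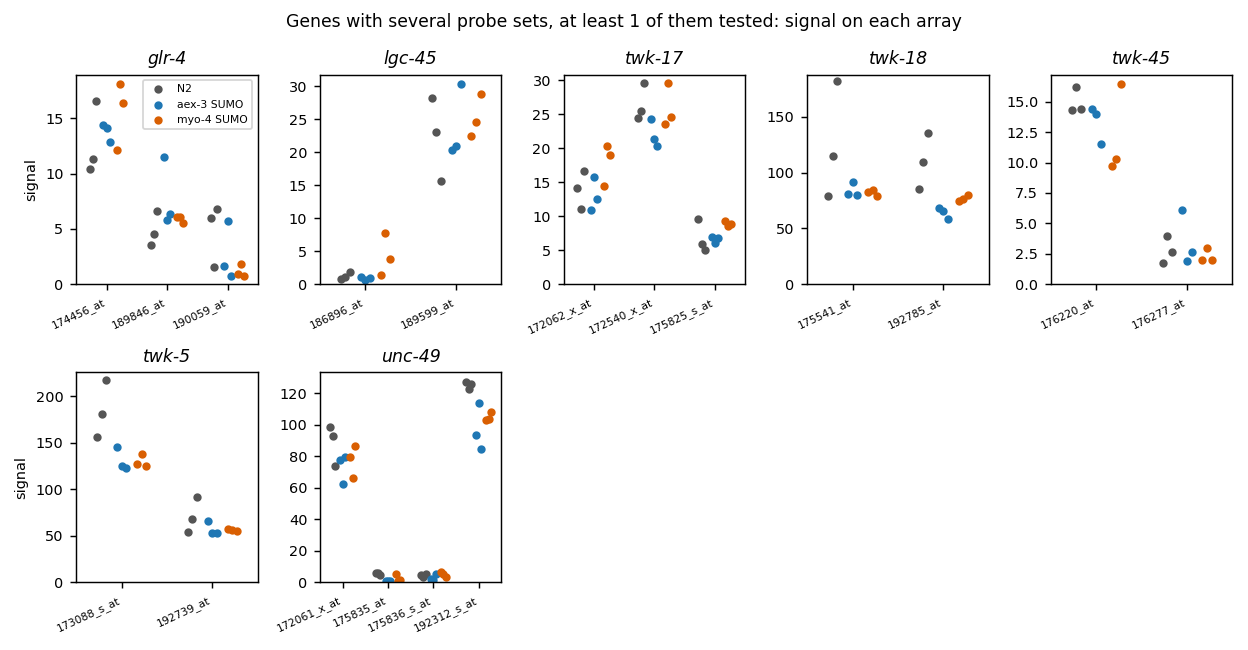
Signal (linear, from 0) on each of the 9 arrays, by group, for each probe set of the 7 genes with several probe sets of which at least 1 was tested; points within a group are replicates 1, 2 and 3 from left to right. For twk-18 and twk-5, N2 replicate 1 lies near the transgenic arrays on 1 probe set (78.8 on 175541_at, 53.4 on 192739_at), and 2 of the 4 unc-49 probe sets stay at or below 6.6.

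Taking N2 replicate 1 out changed which members passed more than how many. Without it, 17 probe sets of 15 genes were lower in aex-3 SUMO and 10 probe sets of 8 genes in myo-4 SUMO, with 0 higher in each. These are 36.2% and 21.3% of the members tested. Of all probe sets, 25.3% and 21.4% were then lower, and 26.8% and 27% higher. In aex-3 SUMO, unc-29, twk-1 and the second probe sets of twk-5 and twk-18 then passed, and lgc-34 and twk-26 did not. In myo-4 SUMO the same second probe sets passed, and lgc-44, twk-8 and twk-26 did not. The members that passed anew in either line did so under no other alternative. The count for aex-3 SUMO was lowest, at 8, without aex-3 SUMO replicate 3, and that for myo-4 SUMO was lowest, at 7, without myo-4 SUMO replicate 2. There 17.4% of members and 18.4% of all probe sets were lower in aex-3 SUMO, and 15.6% and 16.8% in myo-4 SUMO.

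When no filter was applied, the 92 dim members could be described too. At an adjusted p of 0.05 over all 22548 probe sets, 4 of them passed as lower in aex-3 SUMO (unc-49 on 175835_at, twk-31, lgc-35 and acr-3) and 3 in myo-4 SUMO (twk-31, lgc-11 and acr-19), and 0 passed as higher. These are 4.35% and 3.26% of the 92, where 4.45% and 2.85% of all 8344 probe sets under the filter passed as lower and 0.719% and 0.995% as higher. The shares are thus near the background, and since most of these signals lie below background, no difference between the groups is read from them. Their median log2 changes were -0.25 and -0.16, against -0.20 and -0.12 for all 8344 probe sets under the filter. The twk-31 signal was 18.3, 13.7 and 20 in N2, 6.16, 8.60 and 7.54 in aex-3 SUMO and 5.30, 6.95 and 12.1 in myo-4 SUMO, with 2 N2 arrays above the 40th percentile.

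The members lie on all 6 chromosomes. Chromosomes V and X hold 30 and 32 of the genes, of which 13 and 12 were tested, and each of the others holds 13 or 17, of which 4 or 5 were tested.

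Genes that work with these channels but carry other names were described by counts. Of all probe sets, 24.0% were lower and 24.1% higher in aex-3 SUMO, and 20.3% and 24.0% in myo-4 SUMO. Whether any of these lists departs from those shares was not tested. Another 6 tested genes were listed with the acetylcholine receptor subunits, though not all encode such a subunit. Of these, 1 was higher and 1 lower in aex-3 SUMO (median -0.39), and 1 was higher and 0 lower in myo-4 SUMO (median -0.20). The higher gene was cup-4, which encodes a channel-like protein needed for endocytosis by coelomocytes, at 29.6 to 30.7 on N2 arrays, 44.3 to 49.2 on those of aex-3 SUMO and 43.3 to 51.5 on those of myo-4 SUMO. It rose by 0.61 ± 0.13 (adjusted p = 0.0028) and by 0.65 ± 0.13 (adjusted p = 0.00219). The lower gene was deg-3, a subunit of a choline-gated channel, with a change of -0.71 ± 0.19 in aex-3 SUMO (adjusted p = 0.00875) and -0.34 ± 0.19 in myo-4 SUMO (adjusted p = 0.161). Centring gave -0.49 in aex-3 SUMO (adjusted p = 0.0545), and then 2 genes of the list were higher and 0 lower in each line. The lev-1 and lev-8 subunits of the levamisole receptor did not pass, at -0.31 ± 0.19 and -0.47 ± 0.28 in aex-3 SUMO. Without N2 replicate 1, lev-1 passed as lower in that line (-0.54, adjusted p = 0.0114).

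Of 6 anion- or amine-gated Cys-loop genes tested, 1 was lower and 0 higher in each line. This was glc-1, a glutamate-gated chloride channel subunit and target of ivermectin, at 145, 85.0 and 165 in N2, 57.8, 52 and 48.1 in aex-3 SUMO and 42.7, 28.8 and 40.4 in myo-4 SUMO. All transgenic arrays lay below N2, and the gene fell by 1.25 ± 0.22 (adjusted p = 0.000735) and by 1.74 ± 0.22 (adjusted p = 9.96e-05). Of 4 two-pore potassium channel genes and their partners named otherwise, egl-23 was lower in each line and 0 were higher. The egl-23 signal was 43.4, 38.2 and 43.7 in N2, 11.3, 16.5 and 13.2 in aex-3 SUMO and 32.2, 19.5 and 21.3 in myo-4 SUMO. The transgenic arrays lay below N2, with falls of 1.52 ± 0.21 (adjusted p = 0.000167) and 0.77 ± 0.21 (adjusted p = 0.011). The myo-4 SUMO call was lost without replicate 2 of that line (-0.64, adjusted p = 0.0511). The leak channel gene sup-9 was below background.

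Of 17 genes for receptor assembly and clustering, 4 were lower and 1 higher in aex-3 SUMO (median -0.30), and 3 were lower and 1 higher in myo-4 SUMO (median -0.18). The lower counts are near the 24.0% and 20.3% of all probe sets that were lower. The higher gene was nra-2, which acts in receptor assembly in the endoplasmic reticulum, with a rise of 0.57 ± 0.15 (adjusted p = 0.00797) and 0.65 ± 0.15 (adjusted p = 0.00394). Among the lower genes were nlg-1, which encodes neuroligin (-1.04 ± 0.22, adjusted p = 0.00184, and -0.59 ± 0.22, adjusted p = 0.0419), and klp-4, a kinesin that carries glutamate receptors (-0.70 ± 0.17, adjusted p = 0.00553, and -0.68 ± 0.17, adjusted p = 0.00765). The kinase gene unc-43 also fell, by 0.53 ± 0.13 (adjusted p = 0.00542) and 0.45 ± 0.13 (adjusted p = 0.0144), which centring on array medians turned into -0.31 (adjusted p = 0.0609) and -0.30 (adjusted p = 0.0719). The nlg-1 call in myo-4 SUMO was lost under 11 of 17 alternatives, among them centring (-0.44, adjusted p = 0.0986) and leaving out myo-4 SUMO replicate 2 (-0.38, adjusted p = 0.181). Under centring the balance of this list turned in both lines, with 2 genes lower and 3 higher in aex-3 SUMO and 1 lower and 2 higher in myo-4 SUMO. The medians were then -0.08 and -0.03.

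Of 10 genes for transmitter synthesis, transport and breakdown, 4 were lower and 1 higher in aex-3 SUMO (median -0.46), and 2 were lower and 1 higher in myo-4 SUMO (median -0.18). All of these encode transporters. The glutamate transporter genes glt-3, glt-4 and glt-5 and the GABA transporter gene snf-11 were lower in aex-3 SUMO, glt-3 and glt-5 in myo-4 SUMO, and glt-1 was higher in both. The glt-5 signal was 36.9, 26.3 and 42.9 in N2, 11.4, 12 and 10.5 in aex-3 SUMO and 8.41, 8.52 and 9.51 in myo-4 SUMO. All 6 transgenic arrays were below background, so N2 was at least 2.41-fold and 2.24-fold higher. The gene passed the filter through its N2 arrays alone, the group in which it was high. The limma fit gave adjusted p of 0.000288 and 9.69e-05. These rest on transgenic values below background and are read for direction only. Under centring glt-3, glt-4 and snf-11 did not pass in aex-3 SUMO (-0.36, -0.58 and -0.25, adjusted p = 0.13, 0.0857 and 0.157), and 1 gene of the list was lower and 1 higher in each line. The glt-1 gene rose by 0.43 ± 0.11 in each line (adjusted p = 0.00751 and 0.00803). Of 10 other potassium channel genes, 2 were lower and 0 higher in aex-3 SUMO, namely shw-3, a Shaw-type channel (-0.76 ± 0.20, adjusted p = 0.00728), and kqt-2, a KCNQ-type channel (-0.50 ± 0.19, adjusted p = 0.0476). In myo-4 SUMO 1 was lower and 0 higher, kqt-2 (-0.71 ± 0.19, adjusted p = 0.0102). The kqt-2 call in aex-3 SUMO was lost under 12 of 18 alternatives, among them centring (-0.28, adjusted p = 0.228) and leaving out N2 replicate 3 (-0.25, adjusted p = 0.197). The median of that list in aex-3 SUMO was -0.08 as deposited and 0.14 when centred. Between the lines, 0 genes of these lists were called.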

How the data were processed

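Per the labels' protocols, RNA was isolated with RiboPure from whole animals and biotin-labelled cRNA was hybridised to 9 expression arrays. The authors deposited 1 linear intensity for each probe set and array, computed with GCOS (no version given) per the submitters' processing notes. Trimmed at 2%, the array means agreed to within 0.0089%, and no further scaling was applied. No detection calls were used here. The 77 control probe sets were left out. The value 1.623 added before log2 is the median over arrays of the 10th percentile, which draws changes of dim genes toward 0.

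Limma 3.58.1 in R 4.3.3 (lmFit, eBayes with an intensity trend) was fitted to all 9 arrays with group as the term, with 6 residual and 6.88 prior degrees of freedom. Tests were two-sided and adjusted over the 14204 probe sets kept, at 0.05. The fit was tested on simulated data. Tables were made with Python 3.11.15 and pandas 2.3.3.

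Probe sets were named from the platform annotation, of which 20766 had 1 gene, 887 several and 895 none. Chromosomes come from a table of genes on assembly WBcel235. The lists (6 of pathways, 8 of cell types) and the members were chosen with earlier results of these data known. For lists, the probe set with the highest mean signal stood for a gene. Named members are those called, the brightest of each family and a fixed set of well-studied genes. Same-numbered replicates of different groups did not deviate together (correlations -0.194 to 0.029), so replicate numbers were not used as pairs. Intervals are 95% intervals of the limma fit. The alternatives were quantile normalization, centring on array medians, no filter or a filter at the 60th percentile, pseudocounts of 16 and 1, eBayes without trend, only the arrays compared, a replicate block, and leaving out each array.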

Additional observations from a re-analysis of the deposited data

How the results depend on the processing

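No member was called higher than N2, or called between the lines, under any alternative run, and no call changed sign. The count of members lower in aex-3 SUMO was 15, and it was 6 with arrays centred on their medians, 8 with a filter at the 60th percentile (13 members tested) and 8 to 17 when an array was left out. The count of members lower in myo-4 SUMO was 11, and it was 5, 6 and 7 to 10 under the same alternatives. With the filter at the 60th percentile, 61.5% of members and 24.4% of all probe sets were lower in aex-3 SUMO. In myo-4 SUMO these shares were 46.2% and 22.9%. With an array left out, 17.4% to 36.2% of members and 18.4% to 25.3% of all probe sets were lower in aex-3 SUMO. In myo-4 SUMO these ranges were 15.6% to 22.2% and 15.9% to 21.4%. With a replicate block the counts were 12 and 11, and 0 between the lines. Of the members these are 25.5% and 23.4%, against 22.6% and 19.2% of all probe sets. Since the replicate numbers did not pair the samples, the fit with a replicate block is no stronger test. Calls that held under every alternative in which the probe set was tested numbered 6 in aex-3 SUMO (lgc-21, lgc-22, lgc-27, lgc-49, twk-18, twk-49) and 5 in myo-4 SUMO (lgc-21, lgc-22, lgc-49, twk-49, twk-5). Members above background numbered 47, or 13 at the 60th percentile, 22 at the 40th on all 9 arrays, and 18 above every bacterial and yeast control, a limit that was chosen after seeing the data. Leaving out an array left 45 to 47. The filter at the 60th percentile tests fewer members by construction, and the cause of the other shifts was not tested. Signal over background limits the 92 members not tested.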
